A study of Mus musculus with 50 samples.

Results

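Thyroids taken 15 hours after antibodies against the receptors Notch1 and Notch2 were compared with thyroids taken 15 hours after an isotype control antibody, in adult mice. The comparison holds 10 of the 50 RNA-seq libraries of the study, chosen by their titles: 5 libraries of the receptor-blocking pair (aN1aN2) and 5 of the control, an anti-ragweed antibody (RW). All 10 came from male C57BL/6 mice, aged 10 to 12 weeks in the series description and 10 to 14 weeks in the treatment protocol, and 1 intraperitoneal dose was given. RW was given at 40 mg/kg, and the aN1aN2 mice received 5 mg/kg of anti-Notch1 and 10 mg/kg of anti-Notch2. The total antibody dose therefore differed between the groups. Further groups of 5 libraries are used where named: antibodies against the ligands Jag1 and Jag2 (aJ1aJ2, 20 mg/kg each) at 15 hours, and RW and aN1aN2 at 5 days. The series description mentions injections of thyroid hormones from a later day of the study, and no label of these libraries speaks of them. The libraries are separate per the titles, but nothing in the labels says how mice were assigned to a day of dosing or dissection.

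Notch receptors are transmembrane proteins that are cut when a ligand of the Jagged or Delta family on a neighbouring cell binds them. The released intracellular part enters the nucleus, joins the DNA-binding protein RBPJ and switches on a small set of genes, among them the Hes and Hey repressors. In blood vessels Notch1 and its ligand Dll4 set the balance between sprouting tip cells and stalk or arterial cells, and Notch3 acts in the muscle and pericyte layer around vessels. The adult thyroid is built of hormone-producing follicles wrapped in a dense capillary net. An antibody blocks the receptor protein, so the receptor transcripts do not measure the blockade.

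Total counts were 30.6 ± 4.08 M per library in RW (SD, n = 5, range 25.2 to 35.8) and 33.5 ± 6.42 M in aN1aN2 (range 26.9 to 42.9), a difference within the spread between libraries (exact two-sided permutation test, p = 0.421, where 5 against 5 allows no p below 0.00794). The follicle markers matched the thyroid label: Tg, which encodes the hormone precursor thyroglobulin, took 14.5 to 33.2% of all counts in RW and 7.37 to 36.8% in aN1aN2. Transcripts of tissues that lie beside the gland were present in both groups. Genes of airway epithelium, such as Bpifa1 and Muc5b, summed to 9273 CPM (counts-per-million of all counts, the unit of every summed list here) in RW replicate 5 and to 9266 and 14270 in aN1aN2 replicates 2 and 5, against at most 597 in the other 7 libraries. Cartilage genes reached 1276 and 2045 CPM in the same aN1aN2 libraries and at most 305.7 in the others. Skeletal muscle genes ranged from 812.9 to 86800 CPM in RW and from 2203 to 70960 in aN1aN2. In bulk tissue, fewer cells of a type and less RNA per cell cannot be told apart. Of the 63 called genes named below, 37 lost the call in a fit without the 3 airway-rich libraries, which uses fewer libraries, and their values in it are given with each group.

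**Figure D1:**
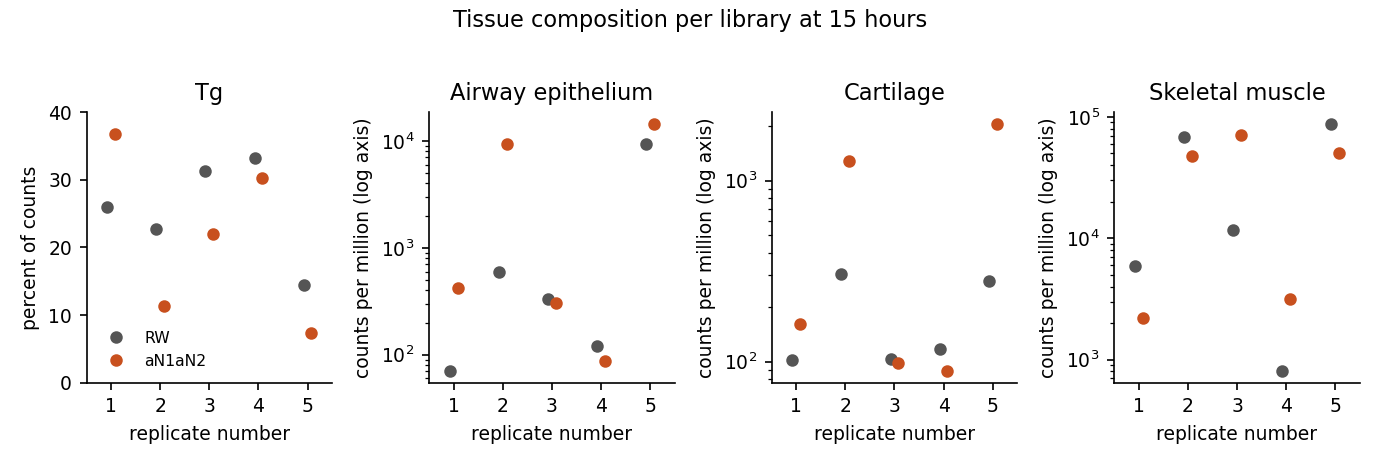
Share of Tg (percent of counts) and summed airway, cartilage and skeletal muscle genes (CPM, log axes) in each RW (grey) and aN1aN2 (orange) library at 15 hours, by replicate number, which only names a library. The 3 libraries with the lowest Tg share, aN1aN2 replicates 5 and 2 and RW replicate 5, were also those with the most airway transcripts.

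The groups also differed in how the deposited values were made. The FPKM values of the series fall into 2 blocks that were scaled separately, and the aN1aN2 libraries at 15 hours share a block of 20 libraries with all 5-day groups, whereas RW and aJ1aJ2 at 15 hours lie in the block of 30 with the 7-day sets. Raw counts were used here, which are not scaled by block, but whatever else the blocks stand for cannot be told apart from the antibody in this comparison. The RW libraries at 5 days are the isotype libraries inside the block of aN1aN2. Among them replicate 3 was rich in muscle and poor in follicle transcripts. Its skeletal muscle genes summed to 168900 CPM and Tg to 4495, against 1693 to 15960 and 340300 to 403400 in the others. That library enters every comparison with RW at 5 days below, and its part in the values of single genes and lists was not tested. Because of the blocks, aN1aN2 at 15 hours was also set against RW at 5 days (same block, other time). RW at 5 days was set against RW at 15 hours too (same antibody, other block and time). Values of these comparisons are given for some gene groups and genes below, and their absence elsewhere carries no meaning. These comparisons share libraries with the main one, so their values are given side by side and do not add evidence. Among the 19337 genes tested in them, 242 (1.25%) differed in the former and 1828 (9.45%) in the latter. Leaving out 1 library moved the former to 12 or 118 (aN1aN2 replicate 2 or 5) and to 67, 26 or 24 (5-day RW replicate 1, 2 or 5). The latter became 1031 or 1058 (15-hour RW replicate 1 or 4) and 1112 (5-day RW replicate 2).

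At 15 hours, 311 of 18513 genes tested differed between aN1aN2 and RW (edgeR quasi-likelihood test, Benjamini-Hochberg adjusted p under 0.05), 1.68% of the genes tested. Of these, 163 (0.88%) were higher and 148 (0.799%) lower in aN1aN2, and 90 of the higher and 113 of the lower differed at least 2-fold. The higher genes included interferon-stimulated and acute-phase genes, several chaperones and 4 mitochondrially encoded transcripts. The lower genes included liver-specific transcripts, the vascular Notch ligand Dll4, the gap junction gene Gja4 and the clock repressors Nr1d1 and Nr1d2. The median log2 fold change over all genes tested was 0.01. Groups did not overlap for 968 genes (5.23%), and they did not overlap for 299 of the 311 called genes. Among the genes named below, the exons of Usp18, Notch1, Notch2, Notch3, Nrarp, Dll1, Tg, Pax8, Foxe1, Duoxa1, Duoxa2, Junb, Dnaja1, Hspa8, Eif5b, Sfpq, Ctdsp2, Hnrnpl, Plg, Fgg, Cyp2c29 and Hes5 overlap those of another gene, and their counts are uncertain to that extent. Without the 3 airway-rich libraries the count was 127, with 33 higher and 94 lower, and 90 of those genes were among the 311. Leaving out RW replicate 1, 2, 3 or 4 gave 183, 170, 158 or 120 genes, leaving out aN1aN2 replicate 1 or 2 gave 200 or 199, and DESeq2 called 842.

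**Figure D2:**
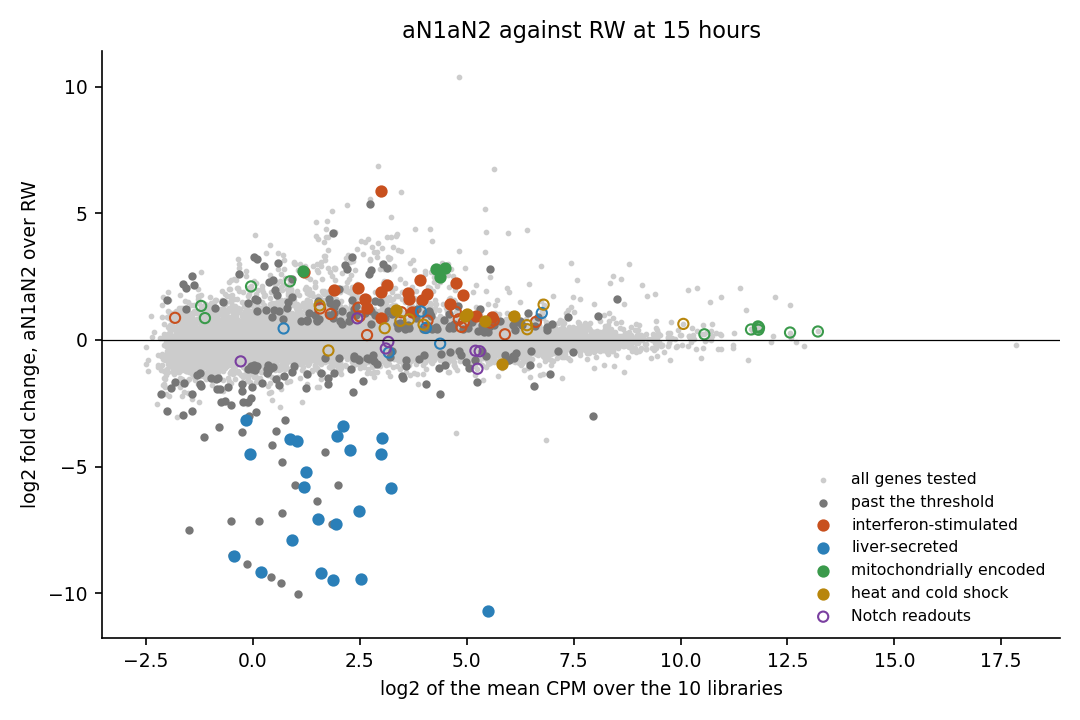
Log2 fold change of aN1aN2 over RW at 15 hours (y axis) against the log2 of the mean CPM over the 10 libraries (x axis), 1 point per gene tested. Dark grey and filled coloured points are past the threshold, open coloured points are list members that are not; interferon-stimulated genes (orange) lie above 0, 22 liver-secreted genes (blue) lie far below it, and the 7 Notch readouts tested (open purple) lie between −1.14 and 0.85 with none past the threshold.

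Interferon-stimulated genes were the largest group of called genes among the lists that rose. They encode proteins that recognise viral RNA, block its translation or amplify the interferon signal itself, and they are switched on when interferon-activated transcription factors bind a DNA element of repeated GAAA blocks, the interferon-stimulated response element. Of 36 listed genes, all of which were tested, 20 rose and 0 fell, while 0.88% of all genes tested rose. The log2 fold change was above 0 for all 36, with a median of 1.17, and for 30 of the 36 every aN1aN2 library lay above every RW library, against 2.63% of all genes.

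The promoters of 5 of these genes that rose are shown because they carry the element in the last 250 bases before the start of transcription (RefSeq, mouse build GRCm38.p6, 100 bases of each window, 5′ to 3′ on the gene's strand). The motif searched was GAAA, any 2 bases, GAAA, on either strand, and capitals mark every match. A match on the other strand reads TTTC, 2 bases, TTTC.
Isg15, chr4:156200837-156200936, minus strand: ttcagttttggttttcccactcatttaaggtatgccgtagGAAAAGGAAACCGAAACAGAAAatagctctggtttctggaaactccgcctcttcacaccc
Ifit1, chr19:34640745-34640844, plus strand: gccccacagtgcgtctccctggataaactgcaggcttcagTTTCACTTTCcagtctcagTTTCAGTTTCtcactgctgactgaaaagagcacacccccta
Ifit3, chr19:34583333-34583432, plus strand: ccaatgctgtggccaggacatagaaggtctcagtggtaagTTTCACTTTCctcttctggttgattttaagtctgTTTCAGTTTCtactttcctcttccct
Oas3, chr5:120777675-120777774, minus strand: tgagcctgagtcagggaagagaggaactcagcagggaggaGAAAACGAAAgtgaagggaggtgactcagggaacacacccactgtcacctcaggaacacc
Gbp3, chr3:142559944-142560043, plus strand: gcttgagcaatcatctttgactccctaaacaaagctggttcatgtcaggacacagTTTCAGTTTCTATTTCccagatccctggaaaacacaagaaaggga
The Isg15 promoter held 3 overlapping matches, the first beginning 78 bases before the start, and the Oas3 promoter held 1, at 75 bases. Ifit1 held 2 separate matches, at 104 and 85 bases, Ifit3 held 2, at 156 and 122 bases, and Gbp3 held 2 overlapping ones in 1 of its 2 listed windows, at 45 and 39 bases. Of the 36 listed genes 25 had a promoter in the table, and 15 of those (60%) held the element. It stood in 408 of the 12599 tested genes with a promoter (3.24%), and in 7 of the 12 listed genes that rose and had one (58.3%). A match is a run of letters and was not tested as a binding site. Irf7 and Oasl2 had none in the window.

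Isg15 (ENSMUSG00000035692), a small ubiquitin-like protein attached to other proteins during antiviral defence, measured 4.31, 1.85, 3.91, 2.32 and 3.36 CPM (for single genes after TMM scaling) in RW replicates 1 to 5 and 15.7, 17.7, 10.5, 12.5 and 15.0 CPM in aN1aN2. Every aN1aN2 library lay above every RW library, and the log2 fold change was 2.18 (SE 0.33, edgeR adjusted p = 0.00402). Irf7 (ENSMUSG00000025498), the transcription factor that amplifies interferon production, measured 11.2, 7.94, 9.56, 8.91 and 9.54 CPM in RW and 48.5, 52.7, 45.5, 39.1 and 37.3 CPM in aN1aN2. It was 4.73-fold higher (log2 fold change 2.24, SE 0.35, adjusted p = 0.00463), with narrow groups that lay far apart. Irf7 shares exon sequence with Phrf1, which runs the other way, and since it is not stated whether counting used strand, its value is uncertain to that extent.

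Ifit1 (ENSMUSG00000034459) and Ifit3 (ENSMUSG00000074896) encode proteins that bind viral RNA lacking the marks of self. Ifit1 measured 4.88, 3.82, 5.00, 3.83 and 6.73 CPM in RW and 27.3, 35.4, 19.8, 18.7 and 23.8 CPM in aN1aN2, and rose with a log2 fold change of 2.37 (SE 0.39, adjusted p = 0.00719). Ifit3 measured 11, 5.54, 7.54, 6.23 and 6.80 CPM in RW and 30.8, 29.0, 22, 24.1 and 25.9 CPM in aN1aN2, and rose with a log2 fold change of 1.83 (SE 0.35, adjusted p = 0.0173). Ifit3 has a near-identical neighbour, Ifit3b, that also rose, and reads could be split between them. Neither Ifit1 nor Ifit3 overlapped between the groups, though Ifit3 lost its call without RW replicate 2 or 4 (adjusted p up to 0.0616). The oligoadenylate synthetases, which sense double-stranded RNA and activate the nuclease RNase L, rose as well. Oas2 (ENSMUSG00000032690) measured 6.61, 4.68, 5.00, 4.21 and 6.62 CPM in RW and 23.5, 25.3, 17.0, 17.1 and 14.2 CPM in aN1aN2 (log2 fold change 1.84, SE 0.24, adjusted p = 0.00156). Oas3 (ENSMUSG00000032661) measured 0.982, 0.386, 0.548, 0.486 and 0.652 CPM in RW and 4.50, 5.95, 2.90, 3.95 and 2.53 CPM in aN1aN2 (log2 fold change 2.69, SE 0.34, adjusted p = 0.00142). Oas2 and Oas3 were called under all 12 alternatives and with each of the 15 libraries left out.

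Other members of the list moved with these. Usp18, which removes ISG15 from proteins and dampens the receptor, rose from 3.36 ± 1.12 to 12.5 ± 2.93 CPM (log2 fold change 1.89, adjusted p = 0.0113), and Oasl2, a relative of the synthetases, from 13.5 ± 1.53 to 46.5 ± 9.48 CPM (1.78, adjusted p = 0.0124; SD, n = 5 each). Gbp3, one of the guanylate-binding proteins of the interferon gamma response, rose from 13.4 ± 2.43 to 35.3 ± 3.74 CPM (1.40, adjusted p = 0.0403). The call of Gbp3 was lost in 10 of the 15 fits without 1 library, with adjusted p up to 0.123. Outside the list, the Schlafen genes Slfn1 and Slfn4, which interferon also induces in myeloid cells, rose with log2 fold changes of 3.03 (adjusted p = 0.00147) and 4.22 (adjusted p = 0.00463). Slfn4 stood at 20.2 CPM in aN1aN2 replicate 2 and at 2.46 to 4.50 CPM in the other 4, and without that library its value was 3.28 (adjusted p = 0.00334). Ifit1bl1 had the largest fitted rise of the list (5.89, adjusted p = 0.0486), which rested on aN1aN2 replicate 2: that library measured 72.0 CPM, the other 4 from 0.702 to 4.02 CPM and RW from 0.108 to 0.378 CPM. Without that library it was 2.62 (adjusted p = 0.0816), and the call was lost in 12 of the 15 fits without 1 library and in 6 of 11 other alternatives. Without the 3 airway-rich libraries the values were 1.88 for Usp18 (adjusted p = 0.0516), 1.77 for Oasl2 (0.0972), 1.44 for Gbp3 (0.201) and 2.99 for Ifit1bl1 (0.134).

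The listed genes summed to 400 to 651 CPM in RW and to 770 to 1159 in aN1aN2, with no overlap. In aJ1aJ2 at 15 hours, which lies in the same processing block as RW, they summed to 605 to 1653, and Isg15 averaged 18.9 ± 8.60 and Irf7 56.2 ± 33.3 CPM (SD, n = 5). In RW at 5 days, in the block of aN1aN2, they summed to 170 in the muscle-rich replicate 3 and to 384 to 531 in the others. Against RW at 5 days 21 of the 36 rose in aN1aN2 at 15 hours (median 1.33), against 0.833% of all genes. Between RW at 5 days and RW at 15 hours, in contrast, 1 rose, against 5.55% of all genes, and the median was −0.01. Isg15 itself differed by 1.99 (adjusted p = 0.0125) in the former and by 0.22 (adjusted p = 0.772) in the latter. At 5 days aN1aN2 and RW differed in 0 of the 36 by edgeR (median 0.05), where 30 of all 19337 genes (0.155%) were called and leaving out any 1 of 9 of the 10 libraries compared moved that count over 1.5 times, within 11 to 104, and the change of the effect from 15 hours to 5 days was past the threshold for 11, all downward (median −1.35). It was past it for 348 of all genes (1.8%), downward for 1.14%, and for 224 without RW replicate 4 of 15 hours. Of the 18 genes of the macrophage and dendritic list Fcgr1 was the 1 called, upward, against 0.88% of all genes tested. In that list 16 had values above 0 (median 0.42), from 0.01 for Csf1r to 1.68 for Lyz2 (adjusted p = 0.984 and 0.596). The summed list was highest in the 3 airway-rich libraries, at 3802 CPM in RW replicate 5 and 4156 and 11080 in aN1aN2 replicates 2 and 5, against 321.8 to 588.8 in the other RW and 428.6 to 602.3 in the other aN1aN2 libraries. The lymphocyte list had 0 calls among 11 (median 0.48, 8 above 0) and summed to 37.4 to 171 CPM in RW and 42.4 to 151 in aN1aN2. The part of these cells in the interferon values was not tested. Without the 3 airway-rich libraries 2 of the 36 stayed past the threshold, Oas2 and Oas3, while all 36 had values above 0 with a median of 1.19. Isg15 was then 2.06 (adjusted p = 0.0559), Irf7 2.24 (0.0559), Ifit1 2.32 (0.0576) and Ifit3 1.76 (0.143). Leaving out RW replicate 2, 3 or 4 took the 20 to 11, 12 or 9, and leaving out aN1aN2 replicate 1 or 2 took it to 13.

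**Figure D3:**
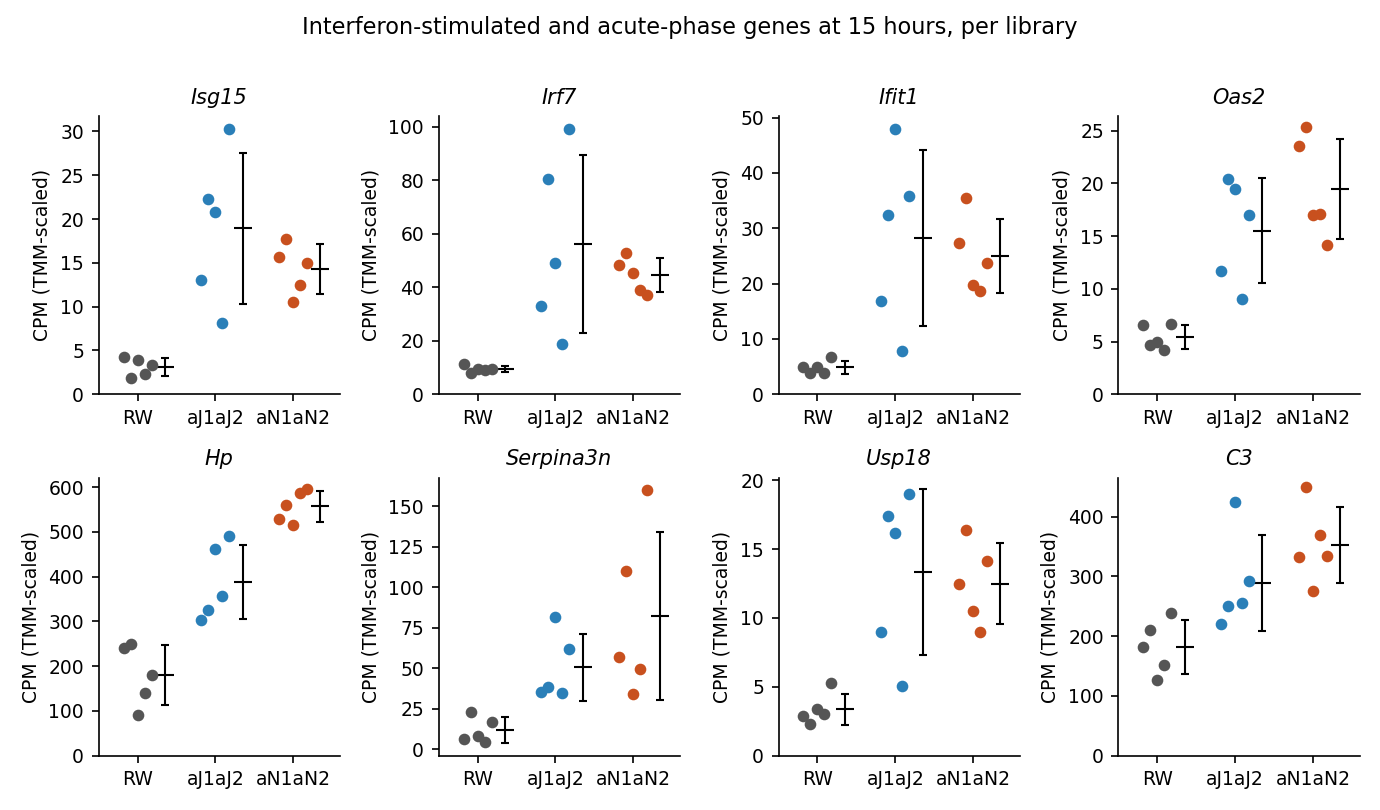
CPM of 8 genes linked to interferon or its signalling (Isg15, Irf7, Ifit1, Oas2, Usp18) or to acute inflammation (Hp, Serpina3n, C3) in each library at 15 hours (points), with the group mean and SD beside them, n = 5 per group. All 5 aN1aN2 libraries (orange) lie above all 5 RW libraries (grey) in each panel, and the aJ1aJ2 libraries (blue) spread widely.

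Several acute-phase genes, which tissues and liver make during systemic inflammation, rose in aN1aN2. Hp (ENSMUSG00000031722), which encodes the haemoglobin-binding protein haptoglobin, measured 241, 249, 90.3, 140 and 181 CPM in RW and 528, 560, 516, 586 and 596 CPM in aN1aN2. The aN1aN2 libraries lay close together and far above the highest RW library, and the log2 fold change was 1.63 (SE 0.24, adjusted p = 0.00386). Serpina3n (ENSMUSG00000021091), a protease inhibitor of the acute phase, measured 6.16, 23.1, 8.22, 4.61 and 17.0 CPM in RW and 56.9, 110, 34.4, 49.6 and 160 CPM in aN1aN2. It rose with a log2 fold change of 2.80 (SE 0.53, adjusted p = 0.0174), with a spread in both groups and no overlap. C3 (ENSMUSG00000024164), the central complement component, measured 182, 210, 127, 151 and 239 CPM in RW and 333, 449, 275, 369 and 334 CPM in aN1aN2 (log2 fold change 0.95, SE 0.21, adjusted p = 0.0372), and lost its call in 8 of the 15 fits without 1 library (adjusted p up to 0.0981) and without the 3 airway-rich libraries (0.96, adjusted p = 0.117). In aJ1aJ2 at 15 hours, of the processing block of RW, Hp averaged 388 ± 83.1, Serpina3n 50.6 ± 20.8 and C3 289 ± 80.3 CPM (SD, n = 5).

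Of the 22 genes of the acute-phase and neutrophil list 14 were tested, 4 rose (Hp, Lcn2, S100a9 and Saa3) and 1 fell (Saa2), against 0.88% and 0.799% of all genes tested, and 9 were not called. The median was 1.30. Lcn2, an iron-scavenging protein, rose from 1.84 ± 0.459 to 11.2 ± 7.12 CPM (log2 fold change 2.61, adjusted p = 0.0278) and Saa3, the serum amyloid A made outside the liver, from 0.278 ± 0.0989 to 2.13 ± 1.12 CPM (2.90, adjusted p = 0.0340). Saa2, the form made in liver, fell from 1.66 ± 1.26 to 0.206 ± 0.118 CPM (−3.00, adjusted p = 0.0213). The neutrophil genes S100a8 and S100a9 rested on aN1aN2 replicate 2, at 29.8 and 55.8 CPM, and S100a8 missed the threshold (5.08, adjusted p = 0.0648) while S100a9 passed it (5.37, adjusted p = 0.0380) and lost it without that library (2.96, adjusted p = 0.0536). The S100a9 call was lost in 7 of the 15 fits without 1 library, each of the 5 RW libraries among them, and in 7 of 11 other alternatives. Fcgr1, the high-affinity antibody receptor of macrophages, rose from 2.46 ± 0.926 to 7.45 ± 1.33 CPM (1.59, adjusted p = 0.00750), and Ly6a, a surface antigen of endothelial and blood cells, from 71.1 ± 9.39 to 131 ± 32.8 CPM (0.89, adjusted p = 0.0281). The summed list was high in the airway-rich libraries, at up to 9850 CPM in RW and 26100 in aN1aN2, mainly through Ltf, a lactoferrin gene that secretory epithelia also express (2209 CPM in RW and 7235 CPM in aN1aN2, adjusted p = 0.785). Leaving out 1 library ended the calls of Lcn2 in 7 of 15 fits (adjusted p up to 0.0831), of Saa3 in 8 (0.0941), of Saa2 in 5 (0.0660) and of Ly6a in 6 (0.0860). Hp differed from RW at 5 days by 1.68 (adjusted p = 0.0135) and Serpina3n by 3.50 (adjusted p = 0.0165). Saa2 reversed there, at 5.72 (adjusted p = 0.0218), and RW at 5 days was below RW at 15 hours (−8.69, adjusted p = 3.5e-05). Saa2 averaged 0 CPM in RW at 5 days, so these sizes depend on the prior count. Of 17 listed genes tested against RW at 5 days 3 rose and 1 fell (median 1.75), against 0.833% and 0.419% of all genes. Serpina3n lost its call without RW replicate 3 (0.0546). Without the 3 airway-rich libraries Hp and Saa2 kept theirs, while Serpina3n (2.16, adjusted p = 0.117), Lcn2 (1.96, 0.228), Saa3 (2.35, 0.271), S100a9 (2.63, 0.206), Fcgr1 (1.43, 0.0969) and Ly6a (0.65, 0.178) did not. In aJ1aJ2 at 15 hours Lcn2 averaged 10.1 ± 7.33, Saa3 11.6 ± 10.2, Fcgr1 6.61 ± 1.75 and Ly6a 136 ± 29.5 CPM (SD, n = 5), so Saa3 was higher there on average than in aN1aN2.

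Among the 8 listed Notch receptors and ligands, Dll4 alone differed past the threshold, downward, against 0.799% of all genes tested. Dll4 (ENSMUSG00000027314), the Delta-like ligand of endothelial tip and arterial cells, measured 12.3, 15.3, 17.4, 20.2 and 15.2 CPM in RW and 9.18, 5.93, 9.13, 8.95 and 5.87 CPM in aN1aN2. Each aN1aN2 library lay below each RW library, and the gene was 2.06-fold lower (log2 fold change −1.04, SE 0.18, adjusted p = 0.00847). It was 15.6 ± 2.57 CPM in aJ1aJ2 (SD, n = 5). Dll4 was lower by a like amount against RW at 5 days (−1.07, adjusted p = 0.0180), and the isotype groups differed by 0.05. Without the 3 airway-rich libraries the value was −0.84 (adjusted p = 0.0688). Its exons overlap the predicted gene Gm14207 on the opposite strand. The other 7 members also had fitted values below 0 and passed no test: Notch1 −0.29 (adjusted p = 0.711), Notch2 −0.18 (0.702), Notch4 −0.44 (0.443), Jag1 −0.27 (0.502), Jag2 −0.16, Dll1 −0.18 and the non-canonical ligand Dlk1 −0.08. The median over the 8 was −0.23.

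No readout of Notch signalling was past the threshold. Of 8 listed genes 7 were tested, since Hes5 had 1 count in RW and 5 in aN1aN2 in all, and their median log2 fold change was −0.43 against 0.01 for all genes. Heyl (ENSMUSG00000032744), a Hey-family repressor of vascular smooth muscle, had the lowest value, with 56.1, 36.4, 70.1, 70.3 and 28.9 CPM in RW and 27.3, 14.8, 28.0, 34.1 and 14.8 CPM in aN1aN2. Its groups overlapped through RW replicate 5 (log2 fold change −1.14, SE 0.30, adjusted p = 0.0783), although DESeq2 called it (−1.13, adjusted p = 0.0149), as did 3 other alternatives. Hes1, the most widely used readout, measured 42.8, 46.9, 49.8, 46.2 and 42.3 CPM in RW and 45.3, 19.5, 30.9, 42.5 and 28.9 CPM in aN1aN2 (−0.45, adjusted p = 0.444), with 3 aN1aN2 libraries below all of RW. Notch3, a receptor gene that Notch itself induces in mural cells, measured 31.2, 50.4, 40.0, 46.3 and 43.4 CPM in RW and 33.7, 28.5, 37.4, 34.2 and 22.9 CPM in aN1aN2 (−0.43, adjusted p = 0.288). Hey2, an arterial repressor, had the only value above 0, with 3.63, 3.99, 4.49, 4.40 and 2.85 CPM in RW and 10.4, 6.28, 8.43, 5.79 and 3.99 CPM in aN1aN2 (0.85, adjusted p = 0.124). DESeq2 called Hey2 too, upward (adjusted p = 0.036), as the only 1 of 12 alternatives. Hey1 was −0.34 (0.405), Nrarp −0.85 (0.34) and Dtx1 −0.08 (0.948). A p above the threshold does not show that these genes were alike in the groups. The median of the 7 was −0.08 against RW at 5 days, with 0 called. Heyl was −0.79 there (adjusted p = 0.266), while Nrarp was 1.43 (0.164). Nrarp was lower in RW at 5 days than in RW at 15 hours (−2.25, adjusted p = 0.00729), the 1 call among the 7, against 3.9% of all genes.

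The machinery that cuts and transmits Notch gave 1 call among 20 genes, against 1.68% of all genes tested (median 0.02). Psenen, a subunit of the gamma-secretase complex that frees the intracellular part, measured 1.96, 1.59, 1.92, 1.59 and 2.37 CPM in RW and 0.901, 0.836, 0.587, 0.746 and 1.38 CPM in aN1aN2 (log2 fold change −1.08, adjusted p = 0.0283). It was 0.08 against RW at 5 days, and RW at 5 days was itself lower than RW at 15 hours by −1.13 (adjusted p = 0.0320). Its exons overlap U2af1l4, so the value is uncertain, and its call was lost in 8 of the 15 fits without 1 library.

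Endothelial genes other than Dll4 showed 2 lower calls among 24, against 0.799% of all genes tested (median −0.02). Gja4 (ENSMUSG00000050234), which encodes connexin 37 of arterial endothelium, measured 10.8, 9.57, 11.5, 9.96 and 7.52 CPM in RW and 4.23, 4.79, 5.10, 5.66 and 5.72 CPM in aN1aN2 (log2 fold change −0.95, SE 0.17, adjusted p = 0.0124), with no overlap, and the adjusted p was 0.0526 without RW replicate 1. It did not pass the test against RW at 5 days (−0.11, adjusted p = 0.890), and it was lower in RW at 5 days than in RW at 15 hours (−0.82, adjusted p = 0.0380). Esm1 (ENSMUSG00000042379), a proteoglycan of sprouting tip cells, measured 65.8, 46.2, 74.7, 77.0 and 24.8 CPM in RW and 29.3, 8.29, 21.1, 18.2 and 15.3 CPM in aN1aN2. It was 3.13-fold lower (−1.65, SE 0.38, adjusted p = 0.0462), the groups overlapped at RW replicate 5 and aN1aN2 replicate 1, and the call held in 4 of 12 alternatives and with 3 of 15 libraries left out. Esm1 was −1.52 (adjusted p = 0.0969) without the 3 airway-rich libraries. Kdr, the main receptor for vascular endothelial growth factor, was not past the threshold (−0.35, adjusted p = 0.607), nor were the pan-endothelial genes Pecam1 (128 and 167 CPM, 0.38, adjusted p = 0.143) and Cdh5 (77.5 and 81.5 CPM, 0.07, adjusted p = 0.888). The summed endothelial list ranged from 923 to 1630 CPM in RW and from 935 to 1530 in aN1aN2.

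Igfbp3 (ENSMUSG00000020427), a secreted binder of insulin-like growth factors, measured 158, 127, 284, 211 and 106 CPM in RW and 63.2, 78.9, 56.1, 81.4 and 68.6 CPM in aN1aN2, with no overlap (−1.35, SE 0.28, adjusted p = 0.0283). Its call was lost in 7 of the 15 fits without 1 library (adjusted p up to 0.0971) and without the 3 airway-rich libraries (−1.54, adjusted p = 0.0870), and against RW at 5 days it was −1.27 (adjusted p = 0.158). Ccn4 (ENSMUSG00000005124), a matricellular protein of the CCN family, measured 515, 260, 622, 582 and 217 CPM in RW and 74.8, 18.9, 35.9, 120 and 23.1 CPM in aN1aN2, an 8.06-fold fall (−3.01, SE 0.58, adjusted p = 0.0189). It was lower in RW at 5 days too (−2.28 against RW at 15 hours, adjusted p = 0.0435) and lost its call without the 3 airway-rich libraries (adjusted p = 0.0830) and without RW replicate 4 or aN1aN2 replicate 3 (adjusted p up to 0.0603). None of the 16 mural genes was called (median −0.10). The pericyte gene Rgs5 measured 207 to 320 CPM in RW and 209 to 261 CPM in aN1aN2 at 15 hours (−0.22, adjusted p = 0.568), and at 5 days it was lower in aN1aN2 than in RW (−1.76, adjusted p = 0.00062).

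**Figure D4:**
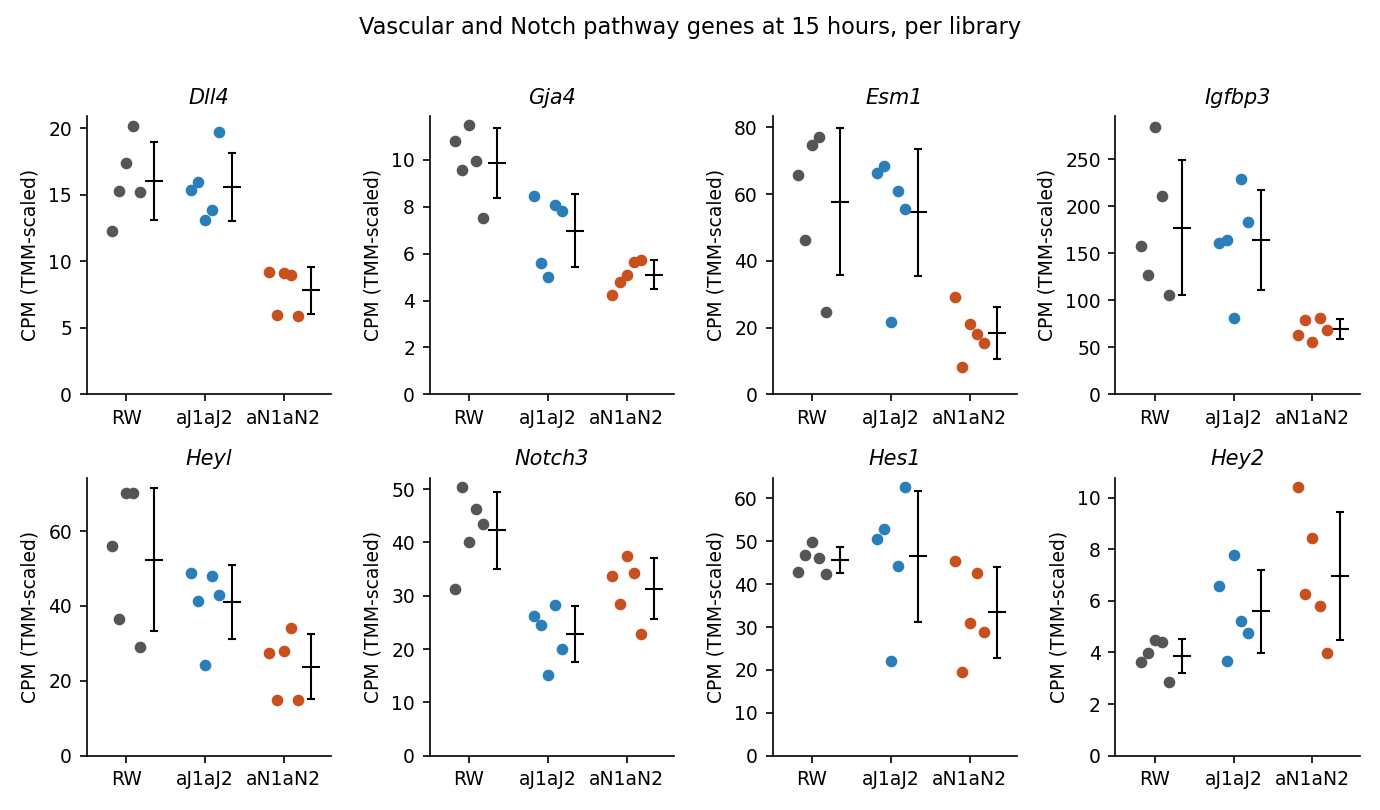
CPM of 8 vascular and Notch pathway genes in each library at 15 hours (points), with the group mean and SD beside them, n = 5 per group. Dll4, Gja4 and Igfbp3 separate aN1aN2 (orange) from RW (grey) without overlap, Esm1 and Heyl overlap at the edges, and Notch3, Hes1 and Hey2 are not past the threshold.

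Genes of thyroid hormone production gave no call among 16. Slc5a5 (ENSMUSG00000000792), the sodium iodide symporter that brings iodide into the follicle cell, came nearest, with 211, 103, 423, 245 and 126 CPM in RW and 94.8, 36.2, 84.1, 126 and 49.2 CPM in aN1aN2. The groups overlapped, and the log2 fold change was −1.51 (SE 0.43, adjusted p = 0.0976). DESeq2 called it (−1.50, adjusted p = 0.0153), as did limma-voom with quality weights (−1.57, 0.0430) and a fit with skeletal muscle level as a covariate (−1.44, 0.0305). The thyroid transcription factors had values of −1.12 for Foxe1 (adjusted p = 0.310), −0.41 for Nkx2-1, −0.37 for Pax8 and −0.14 for Hhex. Dio1, which activates the hormone, was −0.99 (adjusted p = 0.263). Tshr, the receptor for thyrotropin, was −0.40, and Slc26a4, which passes iodide on to the lumen, −0.36. Of the oxidase genes that make peroxide for hormone synthesis and their maturation factors, Duox2 (−0.44), Duoxa1 and Duoxa2 had values below 0. Duox1 had the only value above 0 in the list (0.72, adjusted p = 0.656), which rested on 12.7 CPM in aN1aN2 replicate 2 and turned to −0.50 without that library and −0.47 without the 3 airway-rich ones. Over the list 15 of 16 values were below 0 with a median of −0.36, and without the 3 airway-rich libraries 12 of 16 were, with a median of −0.22. Against RW at 5 days the list median was −0.22, with Slc5a5 at −0.38 (edgeR adjusted p = 0.869) and Foxe1 at 0.94 (0.565). Between RW at 5 days and RW at 15 hours it was −0.22, with Slc5a5 at −1.11 (0.386) and Foxe1 at −2.04 (0.0509). The Tg share was 25.5 ± 7.44% in RW and 21.5 ± 12.4% in aN1aN2, a difference well within the spread (exact two-sided permutation test, p = 0.540). The lowest Tg shares were in the libraries richest in airway genes, and the part of that tissue in these values was not tested.

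The greatest falls were in transcripts of the liver. Of 28 tested genes of the liver list 22 fell, against 0.799% of all genes, with a median log2 fold change of −4.52. For 22 of the 28 every aN1aN2 library lay below every RW library, against 2.6% of all genes. Alb (ENSMUSG00000029368), serum albumin, measured 146, 122, 32.5, 113 and 35.1 CPM in RW and 0.104, 0, 0.0367, 0 and 0.153 CPM in aN1aN2, or 13918 counts in all against 8, and the group means differed 1527-fold. Fga and Fgg, chains of fibrinogen, had 1161 and 949 counts in RW and 1 each in aN1aN2, ratios of 1275 (95% interval 228 to 50417, counting error only) and 1042 (187 to 41219). For genes at 0 counts in all aN1aN2 libraries a bound is given from a floor of 3 counts over the group: plasminogen (Plg) was at least 176-fold lower, Cyp3a11, a drug-metabolising cytochrome, at least 130-fold, and the fatty-acid binder Fabp1 at least 85.7-fold. The proteinase inhibitor Mug1 was at least 83.9-fold and the cytochrome Cyp2c29 at least 82.8-fold lower. The major urinary proteins Mup7, Mup9 and Mup17 followed the same pattern (650, 420 and 1796 counts in RW against 0, 0 and 2), but these genes are near-identical copies and their counts are uncertain.

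Levels of these liver transcripts varied across the groups of the series. The summed list was 153 to 644 CPM in RW at 15 hours, 138 to 245 in aJ1aJ2 and 136 to 260 in aN1aN2 at that time. In RW at 5 days it was 52.7 in the muscle-rich replicate 3 and 84.8 to 283 in the others. It was higher still in the 7-day RW libraries of the block of RW, at 948 to 3645. The sum also holds genes of the list that did not fall, such as Cyp2e1 (70.1 and 146 CPM in RW and aN1aN2, adjusted p = 0.143). In aJ1aJ2, of the same block as RW, Alb averaged 6.04 ± 3.09 CPM. RW at 5 days was lower than RW at 15 hours in 22 of 28 genes (median −6.01), against 3.9% of all genes. In turn aN1aN2 at 15 hours differed from RW at 5 days in 1 of 28, upward, against 0.833% of all genes (median 0.64). The source of these transcripts was not tested.

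Of 15 mitochondrially encoded transcripts 4 rose in aN1aN2, against 0.88% of all genes tested, and 11 were not called. All 15 had values above 0 (median 0.86). mt-Co2 (ENSMUSG00000064354), a subunit of cytochrome c oxidase, measured 3.72, 7.64, 3.73, 2.81 and 9.51 CPM in RW and 19.6, 33.0, 51.1, 29.5 and 64.5 CPM in aN1aN2 (log2 fold change 2.85, SE 0.42, adjusted p = 0.00362), with no overlap. mt-Atp6 rose from 4.88 ± 2.45 to 33.8 ± 11.1 CPM (2.79, adjusted p = 0.00246), mt-Co3 from 6.27 ± 3.62 to 35.1 ± 15.6 CPM (2.48, adjusted p = 0.0140) and mt-Nd4l from 0.595 ± 0.411 to 3.91 ± 2.28 CPM (2.73, adjusted p = 0.0366). The abundant mt-Co1, encoded on the same chromosome, was 3120 ± 1757 CPM in RW and 4126 ± 1362 CPM in aN1aN2 and was not called (0.40, adjusted p = 0.715). The 4 called genes have low counts for mitochondrial genes, neighbouring genes overlap some of them, and nuclear copies can take their reads, so these values are uncertain. Leaving out 1 library ended the call of mt-Nd4l in 5 of 15 fits (adjusted p up to 0.105). The calls of mt-Nd4l (3.13, adjusted p = 0.108) and mt-Co3 (2.45, 0.0627) were lost without the 3 airway-rich libraries. Of the 15, 6 were higher in RW at 5 days than in RW at 15 hours (median 1.34), against 5.55% of all genes, and 0 differed between aN1aN2 at 15 hours and RW at 5 days (median −0.47). The summed list in RW at 5 days was 106400 CPM in the muscle-rich replicate 3 and 14930 to 27770 in the others. In RW at 15 hours it was 12320 to 40930, a range that holds those others. The part of replicate 3 in the 2 medians was not tested. The nuclear genes of oxidative phosphorylation gave 0 calls among 72 (median 0.01).

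Of 16 listed heat- and cold-shock genes 5 rose and 1 fell, against 0.88% and 0.799% of all genes tested, and 10 were not called. Hspa8 (ENSMUSG00000015656), the constitutive HSP70, measured 22.8, 22.1, 21.9, 18.1 and 22.2 CPM in RW and 39.8, 34.5, 45.6, 43.3 and 53.7 CPM in aN1aN2, a 2.03-fold rise (log2 fold change 1.02, SE 0.13, adjusted p = 0.00147). Its co-chaperones Dnaja1 (0.94, adjusted p = 0.00196) and Dnajb1 (0.74, adjusted p = 0.0113), the HSP90 gene Hsp90aa1 (1.17, adjusted p = 0.0124) and its partner Chordc1 (0.93, adjusted p = 0.00841) rose with it. The cold-shock RNA-binding protein Cirbp fell, with 70.5, 75.4, 79.1, 84.2 and 61.7 CPM in RW and 36.1, 25.7, 39.5, 52.5 and 39.6 CPM in aN1aN2 (−0.94, adjusted p = 0.0189), and lost its call in 5 of the 15 fits without 1 library. The list median was 0.74. In RW at 5 days against RW at 15 hours 6 rose and 1 fell, against 5.55% and 3.9% of all genes (median 0.75, Hspa8 0.95 with adjusted p = 0.00160), and aN1aN2 at 15 hours differed from RW at 5 days in 0 of 16 (median 0.13). HSP47 (Serpinh1), the collagen chaperone of the endoplasmic reticulum, rose from 116 ± 15.5 to 217 ± 22 CPM (0.90, SE 0.13, adjusted p = 0.00386), and the collagen hydroxylase subunit P4ha1 from 56.8 ± 6.96 to 95.1 ± 18.5 CPM (0.74, adjusted p = 0.0172; 0.0545 without RW replicate 4). They were the 2 calls among 20 collagen and matrix genes, both upward, against 0.88% of all genes tested (median 0.31). Against RW at 5 days 0 of the 20 were called (median −0.02). Between RW at 5 days and RW at 15 hours 2 of the 20 rose (median 0.40), against 5.55% of all genes. General chaperones of the endoplasmic reticulum gave 0 calls among 19 in the main comparison (median 0.11). The calls of Dnajb1 (0.67, adjusted p = 0.0971), Hsp90aa1 (0.93, 0.152), Cirbp (−0.85, 0.0854) and P4ha1 (0.76, 0.0734) were lost without the 3 airway-rich libraries.

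Of the circadian clock, 3 of 18 genes fell and 0 rose, against 0.799% and 0.88% of all genes tested (median −0.07). Values were above 0 for 9 of the 18, up to 1.32, and below 0 for 9. For 2 genes every aN1aN2 library lay above every RW library and for 3 below, against 2.63% and 2.6% of all genes. Nr1d1 (ENSMUSG00000020889), which encodes the repressor REV-ERB alpha, measured 102, 155, 138, 160 and 189 CPM in RW and 17.8, 37.2, 57.8, 54.5 and 40.9 CPM in aN1aN2, a 3.58-fold fall with no overlap (−1.84, SE 0.31, adjusted p = 0.00750). Its relative Nr1d2 fell from 45.3 ± 7.74 to 20.7 ± 3.32 CPM (−1.13, adjusted p = 0.00246) and the output factor Dbp from 5.32 ± 1.86 to 2.16 ± 0.314 CPM (−1.30, adjusted p = 0.0375). These 3 genes peak at a similar phase of the day in many tissues, and the hour of dissection is not given in the sources used here. Dbp lost its call in 9 of the 15 fits without 1 library (adjusted p up to 0.116), and without the 3 airway-rich libraries Dbp (−1.18, adjusted p = 0.234) and Nr1d1 (−1.68, 0.116) lost their calls. Against RW at 5 days Nr1d1 was −0.98 (adjusted p = 0.156), Nr1d2 −0.82 (0.104) and Dbp 0.24 (0.864). Between RW at 5 days and RW at 15 hours they were −0.82 (0.145), −0.28 (0.572) and −1.50 (0.0310). The exons of Nr1d1 overlap Thra and those of Dbp overlap Sphk2 on the opposite strands. Junb, an immediate-early factor, fell from 34.9, 14.8, 23.7, 30.8 and 23.3 CPM in RW to 4.71, 8.08, 8.91, 11.2 and 4.95 CPM in aN1aN2 (−1.75, adjusted p = 0.0497). It was the 1 call among 20 immediate-early genes, against 1.68% of all genes tested. The call was lost in 13 of the 15 fits without 1 library and without the airway-rich ones (−1.65, adjusted p = 0.284). Junb was 0.06 against RW at 5 days, and RW at 5 days was lower than RW at 15 hours (−1.78, adjusted p = 0.0124).

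Several abundant called genes differed by small amounts, with log2 fold changes from −1.0 to 0.63. RNA-binding and translation genes were among them: the splicing factor Sfpq (0.63, adjusted p = 0.0149), the initiation factor Eif5b (0.54, adjusted p = 0.0191) and the zinc-finger protein Zfr (0.38, adjusted p = 0.0380) rose, as did the HSP70 and HSP90 adaptor Stip1 (0.52, adjusted p = 0.0197). Hnrnpl (−0.43, adjusted p = 0.0442) and Hnrnpdl (−0.44, adjusted p = 0.0267), which bind nascent RNA, fell, as did the phosphatase gene Ctdsp2 (−0.48, adjusted p = 0.0226), folliculin (Flcn, −0.52, adjusted p = 0.0272) and the lysosome transport gene Plekhm2 (−1.0, adjusted p = 0.0338). Of these 9 genes Sfpq alone kept its call with each library left out, and Hnrnpl lost it in 13 of the 15 fits. All 9 lost the call without the 3 airway-rich libraries, with log2 fold changes from −0.85 (Plekhm2) to 0.64 (Sfpq) and adjusted p from 0.0802 (Eif5b) to 0.202 (Flcn). Against RW at 5 days Plekhm2 was −0.18 (adjusted p = 0.780), Flcn −0.18 (0.777) and Ctdsp2 −0.16 (0.608). Between RW at 5 days and RW at 15 hours they were −0.80 (0.0203), −0.30 (0.426) and −0.28 (0.152). Values of the other genes in these comparisons are not given here. Of the 40 lists, those for antigen presentation (18 genes tested, median 0.01), skeletal muscle (13, median 0.06), airway (10, median 0.60) and cartilage (11, median 2.48) held 0 calls, and the last carries the 2 aN1aN2 libraries rich in cartilage. Only 71 of the 311 called genes were in any list.

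The list medians of the 3 comparisons are set side by side here. The interferon-stimulated genes had medians of 1.17 and 1.33 against either isotype group and of −0.01 between the isotype groups, and the receptors and ligands −0.23, −0.22 and −0.04. The heat and cold shock, mitochondrial and liver lists had medians of 0.74, 0.86 and −4.52 in the main comparison, and of 0.75, 1.34 and −6.01 between the isotype groups. Against RW at 5 days those 3 lists stood at 0.13, −0.47 and 0.64. Against RW at 15 hours, against RW at 5 days and between the isotype groups, the Notch readouts stood at −0.43, −0.08 and −0.23. In the same order thyroid function stood at −0.36, −0.22 and −0.22, and the core clock at −0.07, −0.21 and 0.20. The part of the block in any of these values was not tested, since time differs wherever the block is shared. RW at 5 days also holds the muscle-rich replicate 3, whose part in these medians was not tested.

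**Figure D5:**
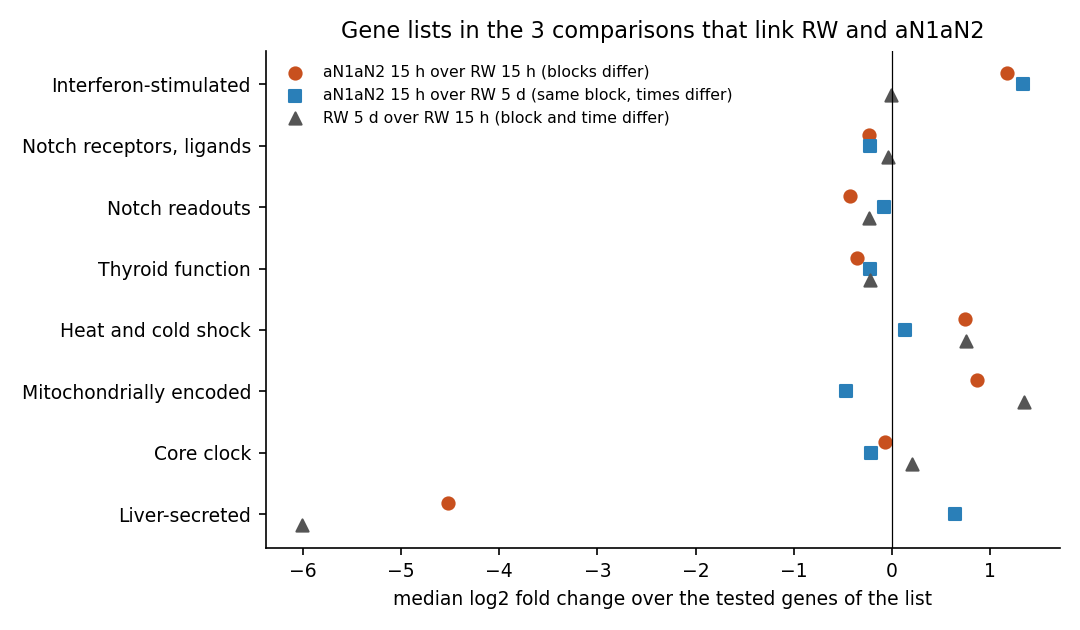
Median log2 fold change over the tested genes of 8 lists (x axis) in aN1aN2 at 15 hours over RW at 15 hours (circles), aN1aN2 at 15 hours over RW at 5 days (squares) and RW at 5 days over RW at 15 hours (triangles), 3 comparisons that share libraries. Circle and square lie together for the interferon-stimulated genes at 1.17 and 1.33, while the liver, mitochondrial and heat-shock circles lie nearer their triangles.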

How the data were processed

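Per the labels' protocols, thyroid RNA was purified by Trizol and column and read single-end. GSNAP and limma are named in the submitters' processing notes. No source used here gives their versions, the build, the annotation or the strand setting. The authors deposited whole-number read counts per gene, which are not normalized and were the values analysed. The FPKM values the authors deposited were used only to find the 2 processing blocks. Of 52636 genes 52403 had a symbol by Ensembl ID, and 0 columns had no sample.

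Genes passing filterByExpr (minimum count 10, minimum total 15) were tested with edgeR 4.0.16 (TMM scaling, robust quasi-likelihood) on the 15 libraries of RW, aJ1aJ2 and aN1aN2 at 15 hours, and on 30 libraries of both times for the other comparisons. P-values were adjusted over all genes tested. Named genes are the 12 largest changes in each direction among called genes with established symbols, no overlap and at least 1 CPM, the 8 most abundant called genes in each direction, and members of gene lists, of which a few are not reported here. The groups, lists and rules were chosen with earlier results of these data known. Alternatives used DESeq2 1.42.0 and limma 3.58.1. The p-values measure the spread between libraries only. Same-group libraries differed by more than sampling noise. Exon overlaps come from GENCODE M21.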

Additional observations from a re-analysis of the deposited data

Results flagged for a closer look

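The named genes gave 190 groups of 5 libraries, of which those averaging at least 1 CPM were checked gene by gene. In 8 of them a library lay far from the other 4. The cut used flags about 1 in 20 groups by chance if values are normally distributed. The rate for CPM values was not measured, and the groups checked were fewer than 190. Of the 8 flags, 5 were aN1aN2 replicate 2, 1 of the 3 airway-rich libraries: Ifit1bl1 at 72.0, S100a9 at 55.8, S100a8 at 29.8, Slfn4 at 20.2 and the oxidase gene Duox1 at 12.7 CPM. Duox1 also stood apart in RW replicate 3, at 5.38 CPM. Tshr stood apart in aN1aN2 replicate 4, at 207 CPM, and Hspa8 in RW replicate 4, at 18.1 CPM.

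The effect of aN1aN2 differed between 5 days and 15 hours for 37 named genes (edgeR interaction test, difference of log2 fold changes, 5 days minus 15 hours, adjusted over all genes tested). The effect was lower at 5 days for the interferon-linked genes Oas3 (−2.68, adjusted p = 0.0472), Oas2 (−2.32, 0.0032), Isg15 (−2.26, 0.0172), Irf7 (−1.91, 0.0270) and Gbp3 (−1.91, 0.00703), for the macrophage receptor gene Fcgr1 (−2.10, 0.0116), and for Ly6a (−0.96, 0.0398) and S100a9 (−8.59, 0.0455). It was lower for the chaperones Hspa8 (−1.93, 0.000136), Hsp90aa1 (−1.82, 0.0032), Dnaja1 (−1.49, 0.000386), Chordc1 (−1.45, 0.0129) and Stip1 (−1.10, 0.00267). The collagen genes Serpinh1 (−1.99, 6.54e-06) and P4ha1 (−1.60, 0.000329), the pericyte gene Rgs5 (−1.57, 0.00682), Eif5b (−0.81, 0.0202) and Zfr (−0.69, 0.00173) moved the same way. So did mt-Nd4l (−4.67, 0.0148), mt-Atp6 (−4.61, 0.00562), mt-Co2 (−4.49, 0.00562) and mt-Co3 (−4.37, 0.0114). At 5 days the heat- and cold-shock list had a median of −0.51 in aN1aN2 over RW. It held 1 call among 16, downward, against 0.155% of all genes. The mitochondrial list stood at −1.01 there, with 0 called.

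At 5 days aN1aN2 over RW was above 0 for Dbp (3.05, edgeR adjusted p = 0.0024), Nr1d1 (1.08, 0.115), Nr1d2 (0.67, 0.19), Ccn4 (1.06, 0.588) and Cirbp (0.88, 0.0585). The effect was thus higher at 5 days for the clock genes Dbp (4.31, 0.000339), Nr1d1 (2.89, 0.00195) and Nr1d2 (1.76, 0.00832), for Ccn4 (4.06, 0.031) and for Cirbp (1.80, 0.000634). It was also higher for the liver genes Alb (16.45, 0.000136), Fga (14.15, 0.000287), Cyp3a11 (13.87, 0.00335), Plg (13.59, 0.00066), Mug1 (13.45, 0.00326), Fgg (12.22, 0.000179), Mup17 (11.46, 0.000478), Cyp2c29 (10.90, 0.0104), Mup7 (10.51, 0.0337) and Fabp1 (9.34, 0.0172). Their fitted sizes depend on the prior count, because they were at or near 0 in aN1aN2 at 15 hours and in RW at 5 days. In RW at 5 days their means were at most 0.0273 CPM (Fabp1). In aN1aN2 at 5 days Alb averaged 0.927 CPM and the others at most 0.111 CPM (Mug1). At 5 days Alb itself was not past the threshold (5.80, edgeR adjusted p = 0.0928). RW and aN1aN2 lie in 1 processing block at 5 days and in 2 at 15 hours, so the part of the block in these differences was not tested. RW at 5 days also holds the muscle-rich replicate 3, whose part in each gene was not tested.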

How the results depend on the processing

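Of the 311 genes called at 15 hours, the count was 842 by DESeq2, 510 by limma-voom with quality weights, 475 with all 50 libraries, 729 with a skeletal muscle covariate and 127 without the 3 airway-rich libraries (chosen after seeing the data), and 120 to 444 with 1 library left out. With the replicate number as a block it was 186, 180 of them shared, but deviations of same-numbered libraries correlated at −0.191 to 0.798 and matched best in 2 of 5, so the numbers do not pair mice. Against RW at 5 days the 242 became 51 with no count filter, 1087 by DESeq2, 6 without the airway-rich libraries and 12 to 336 with 1 left out. Between the RW groups the count was 1061 with no filter and 1031 to 2293 with 1 left out. At 5 days it was 14 with no filter, 959 by DESeq2 and 11 to 104. The change with time gave 888 by DESeq2 and 224 to 511. The 20 interferon genes were 11 with quality weights, 2 without the airway-rich libraries and 9 to 23 with 1 left out. The 5 chaperones were 11 by DESeq2 and with the muscle covariate, 9 with quality weights, 3 without the airway-rich libraries and 5 to 7 with 1 left out. Without those libraries the 4 mitochondrial calls were 2 and the 3 clock calls 1, and with 1 library left out they were 3 to 5 and 2 to 3, while the 22 liver genes were 19 to 22. The Tg share differed by −7.83 to −0.463 points and the totals by 0.615 to 4.62 M. The cause of these shifts was not tested beyond the fewer libraries used.

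Of 95 named genes 63 were called, 35 kept the call with each library left out and 20 also under all 12 alternatives. Genes that were not called and changed sign were Hhex (−0.32 to 0.07 with 1 library left out, 0.15 without the airway-rich ones), Duox1 (−0.50 to 1.28, −0.47, and −0.02 with quality weights), Tg (−0.50 to 0.02, 0.14), Duoxa2 (−0.30 to 0.01, 0.04), Dtx1 (−0.26 to 0.09, 0.11, and 0.06 with quality weights), Duoxa1 (−0.28 to 0.12, and 0.01 with the muscle covariate) and Dlk1 (−0.57 to 0.75).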
